A study of Homo sapiens with 4 samples.

Results

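The 10 genes described here are long non-coding RNA genes that carry small nucleolar RNAs (snoRNAs) in their introns: GAS5, SNHG1, SNHG5, SNHG6, SNHG7, SNHG8, SNHG12, SNHG15, SNHG16 and ZFAS1. They were taken by symbol from the 58051 Ensembl gene rows that each library lists, and all 10 were found and passed the filter on low counts. PolyA RNA was sequenced from A549 cells, a line established from a human lung carcinoma, in which a doxycycline-inducible A-FOS gene had been inserted at random with the piggyBac transposase. The plus Dox group has 2 libraries from cells given 1 µg/mL doxycycline, and the minus Dox group has 2 libraries from the same engineered cells left untreated. A-FOS pairs with JUN proteins and keeps them off DNA, which makes it a dominant-negative inhibitor of AP-1. Every library carries the inserted gene, so doxycycline and A-FOS induction cannot be told apart. The labels give neither the time after doxycycline nor whether libraries of 1 group are separate cultures. The p-values thus reflect no more than the spread among these 4 libraries, which may be technical.

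A snoRNA host gene is transcribed and spliced, the introns are trimmed to release snoRNAs, and the joined exons leave as a polyadenylated RNA. C/D box snoRNAs guide methylation of ribosomal RNA and H/ACA box snoRNAs guide its pseudouridylation, so these genes serve ribosome production. Many host transcripts start with a terminal oligopyrimidine tract, a C followed by a run of pyrimidines that also opens the mRNAs of ribosomal proteins and ties their translation to TOR signalling. Several of the spliced RNAs, GAS5 the best known, are bound by ribosomes and degraded by nonsense-mediated decay, and GAS5 was named for its accumulation in growth-arrested cells.

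RefSeq places 37 snoRNA genes inside the spans of the 10 genes, 28 of the C/D type (SNORD symbols) and 8 of the H/ACA type (SNORA symbols). GAS5 holds 11 and SNHG1 holds 9, whereas SNHG6, SNHG8 and SNHG15 hold 1 each. GAS5, SNHG1, SNHG5, SNHG6, SNHG16 and ZFAS1 hold mainly or only C/D snoRNAs. SNHG7, SNHG8 and SNHG15 hold only H/ACA snoRNAs, and SNHG12 holds 3 H/ACA snoRNAs and 1 C/D snoRNA.

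The starts of the transcripts are shown because many host transcripts, though not all, are described as opening like ribosomal protein mRNAs. In GENCODE 29, 7 of the 9 genes whose starts were read have an annotated transcript that opens with C and at least 4 further pyrimidines (SNHG6 was not read). For 6 of them the first 30 bases of the start that most such transcripts share are given 5′ to 3′, with the C and its pyrimidine run in capitals.
GAS5 (start at chromosome 1, 173867989, minus strand, hg38): CTTTTCgaggtaggagtcgactcctgtgag
SNHG16 (start at chromosome 17, 76557769, plus strand): CTTTTCgaggtcggccgcgtggctggaaga
SNHG5 (start at chromosome 6, 85678733, minus strand): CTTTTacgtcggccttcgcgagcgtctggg
ZFAS1 (start at chromosome 20, 49278642, plus strand): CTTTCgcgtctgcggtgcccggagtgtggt
SNHG8 (start at chromosome 4, 118278758, plus strand): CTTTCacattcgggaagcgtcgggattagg
SNHG12 (start at chromosome 1, 28581873, minus strand): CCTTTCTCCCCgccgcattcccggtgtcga
GAS5 and SNHG16 share their first 11 bases at these starts. Annotated starts are many: 6 of the 29 GAS5 transcripts and 2 of the 8 SNHG16 transcripts begin there. A run opens 3 of 23 SNHG5, 1 of 5 SNHG8, 4 of 17 SNHG12 and 3 of 10 ZFAS1 transcripts, so most transcripts lack it. A gene with many annotated transcripts has more chances of such a start. The share of all genes with at least 1 such transcript was not determined. No SNHG7 or SNHG15 transcript opens with such a run, and SNHG1 has 1 of 25. That SNHG1 start and those shown for GAS5, SNHG12 and ZFAS1 lie farther inside the gene than those of SNHG5, SNHG8 and SNHG16.

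The RefSeq promoter table (GRCh38.p14), which runs from 250 bases before to 50 after a gene's start, matched 8 of the 10 genes, all except SNHG6 and SNHG15. A C followed by at least 4 pyrimidines began within 5 bases of the start in 6 of these 8 promoters, in 51 of 63 promoters of cytosolic ribosomal proteins and in 21.1% of 27305 promoters overall. At the exact start it was found in 3 of the 8 promoters, in 43 of 63 promoters of cytosolic ribosomal proteins and in 4.04% of all promoters. SNHG7 and SNHG1 show how the result depends on the annotated start. Their windows run from 20 bases before the RefSeq start to 29 after it, with the nearest run in capitals.
SNHG7 (chr9:136728155-136728204, minus strand): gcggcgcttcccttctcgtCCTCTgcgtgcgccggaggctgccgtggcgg
SNHG1 (chr11:62855856-62855905, minus strand): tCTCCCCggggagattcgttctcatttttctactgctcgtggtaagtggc
In SNHG7 the run begins 1 base upstream of the start. In SNHG1 the nearest run lies 19 bases upstream, outside the window of 5 bases. The RefSeq start of GAS5 (173869045) lies upstream of the GENCODE starts and has no run within 20 bases. Searched on both strands, the AP-1 motif TGANTCA and the CRE motif TGACGTCA were in 0 of the 8 promoters, against 7.76% and 1.98% of all promoters. At such shares 8 promoters are too few to read 0 as an absence. The GAS5 promoter searched (173868996-173869295) does not contain the GENCODE start shown for GAS5. The E-box CACGTG was in 1, that of SNHG7, against 7.43% of all promoters.

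The levels and changes were set against the whole comparison. Levels are TMM-scaled CPM (counts scaled to a library size that was corrected for composition), and changes are log2 fold changes of plus Dox over minus Dox. A gene was called when edgeR's quasi-likelihood test gave a Benjamini-Hochberg adjusted p under 0.05 over all 18046 tested genes. Total counts were 31104964 to 32727539 in plus Dox and 36377784 to 40526912 in minus Dox. Reads counted to FOS, to which those of A-FOS may add, were at 48.6 and 51.0 CPM in plus Dox against 1.36 and 1.52 CPM in minus Dox. All 6 epithelial markers checked had counts in every library. They summed to 5775 to 5966 CPM in plus Dox and 8186 to 8329 CPM in minus Dox, mostly KRT8 and KRT18. EPCAM and CLDN4 averaged 2.12 and 5.30 CPM in plus Dox and 3.49 and 5.93 CPM in minus Dox. KRT19 averaged 21.1 CPM in plus Dox against 121.9 CPM in minus Dox, and CDH1 35.0 CPM against 38.4 CPM. All 3 genes typical of A549 had counts in every library, with sums of 2218 to 2257 CPM in plus Dox and 5058 to 5259 CPM in minus Dox. Of 9 markers of leukocytes, endothelium and fibroblasts 5 had counts in every library and CD3E was at 0 throughout. The 9 summed to 39.9 to 41.1 CPM in plus Dox and 45.0 to 51.1 CPM in minus Dox, mostly COL1A1, and their part in the results was not tested.

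Of the 10 snoRNA host genes 9 were lower and 1 was higher in plus Dox. Over all tested genes 28.4% were called lower and 28.4% higher, 56.9% in all. The members' median log2 fold change was −0.45, against 0.00 for all tested genes, and single members ran from −0.58 in SNHG12 to 0.25 in SNHG16. The 2 groups of libraries did not overlap in any of the 10 genes, as in 77.0% of tested genes. Both plus Dox libraries were below both minus Dox libraries in 9 of the 10 and in 38.3% of tested genes. The changes were modest: that of SNHG12 exceeded 68.7% of tested genes in absolute size and that of SNHG7 exceeded 28.8%. Summed over the 10 genes the level was 457 and 471 CPM in plus Dox against 586 and 568 CPM in minus Dox. Without SNHG16 the sum was 354 and 366 CPM in plus Dox against 497 and 483 CPM in minus Dox. In bulk RNA, fewer expressing cells and less RNA per cell cannot be told apart.

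**Figure D1:**
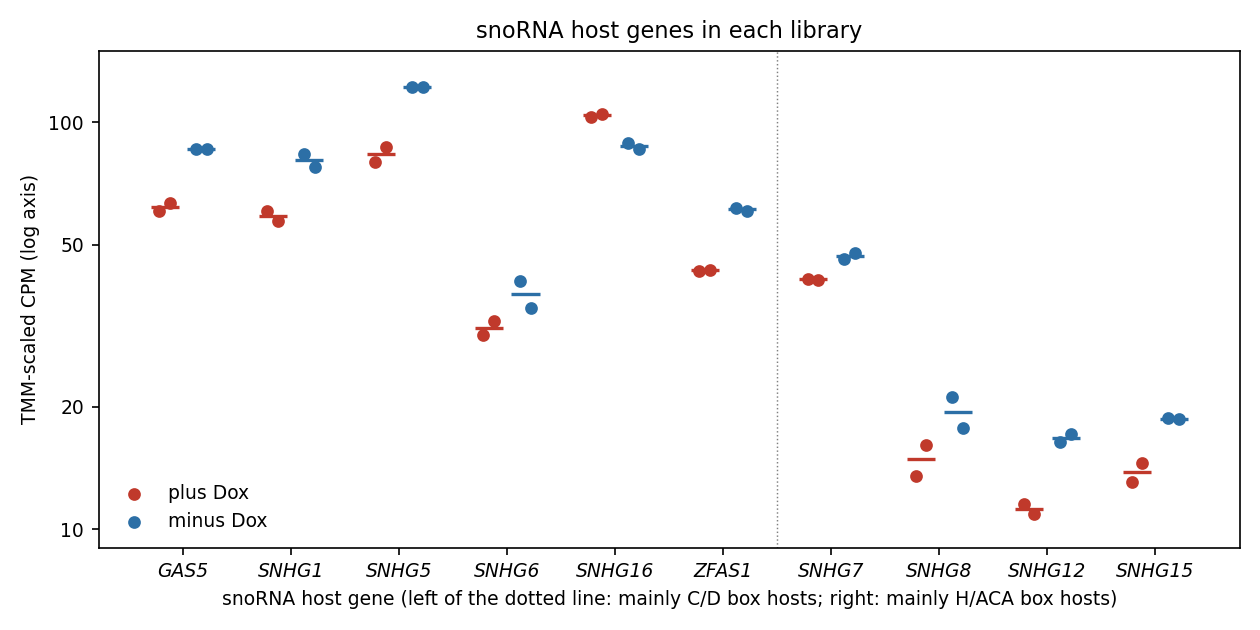
TMM-scaled CPM (log axis) of the 10 snoRNA host genes, with 1 point per library, plus Dox left of minus Dox in each gene and a short line at the mean of each pair. The plus Dox points lie below the minus Dox points in 9 genes and above them in SNHG16, at 103 and 105 CPM against 89.1 and 85.8 CPM.

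The hosts of C/D snoRNAs fell in 5 of 6 cases. SNHG5 (ENSG00000203875, chr6:85660950-85678748, minus strand, hg38), a host of SNORD50A and SNORD50B, was at 80.1 and 87.2 CPM in plus Dox against 123 and 122 CPM in minus Dox. Its log2 fold change was −0.55 (SE 0.05, edgeR adjusted p = 4.75e-12), and −0.33 with the trend of all genes on GC content, length and abundance removed. GAS5 (ENSG00000234741, chr1:173863900-173868882, minus strand), the growth arrest gene, was at 60.4 and 63.2 CPM in plus Dox against 86.2 and 86.0 CPM in minus Dox. The groups are well apart, and GAS5 fell by 0.48 on the log2 scale (SE 0.05, edgeR adjusted p = 6.14e-10). SNHG1 (ENSG00000255717, chr11:62851988-62855914, minus strand), which carries SNORD22 and the run of SNORD25 to SNORD31, had 60.5 and 57.1 CPM in plus Dox and 83.6 and 77.7 CPM in minus Dox. The change of SNHG1 was −0.46 (SE 0.05, edgeR adjusted p = 6.00e-09).

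ZFAS1 (ENSG00000177410, chr20:49278178-49295738, plus strand), named as an antisense RNA at the start of the ZNFX1 gene, had 43.2 and 43.4 CPM in plus Dox and 61.8 and 60.4 CPM in minus Dox. It fell by 0.50 on the log2 scale (SE 0.06, edgeR adjusted p = 3.01e-09), with the libraries of each group close together. Once the trend on GC content, length and abundance was taken out its change was −0.25 (edgeR adjusted p = 3.75e-04). Genes on the opposite strand cover 26.1% of the merged exon bases of ZFAS1, so its count is uncertain. SNHG6 (ENSG00000245910, chr8:66921684-66926398, minus strand), the host of SNORD87, was at 30.0 and 32.5 CPM in plus Dox against 40.8 and 35.0 CPM in minus Dox. Its fall of 0.28 on the log2 scale (SE 0.07, edgeR adjusted p = 0.00150) is less firm, since the nearest libraries of the 2 groups were at 32.5 CPM in plus Dox and 35.0 CPM in minus Dox. SNHG6 was not called without plus Dox replicate 1 (−0.22, edgeR adjusted p = 0.0542), nor once the trend on GC content, length and abundance was taken out (−0.05, edgeR adjusted p = 0.563). Without minus Dox replicate 1 the change of SNHG6 was −0.18 (edgeR adjusted p = 0.0432). Of its exon bases 29.3% lie opposite MCMDC2.

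SNHG16 (ENSG00000163597, chr17:76557766-76565348, plus strand), the host of SNORD1A, SNORD1B and SNORD1C, was the member that rose. It was at 103 and 105 CPM in plus Dox against 89.1 and 85.8 CPM in minus Dox, a log2 fold change of 0.25 (SE 0.05, edgeR adjusted p = 2.73e-05). Its counts were 3629 and 3521 in plus Dox and 3014 and 3216 in minus Dox, and the groups did not overlap. Its share of the reads of the 10 genes was 22.6% and 22.3% in plus Dox against 15.2% and 15.1% in minus Dox. Such a share does not depend on the scaling. It also grows when the other members fall, as they did here, so it does not by itself show a rise of SNHG16. SNHG16 also carries the start sequence most like that of GAS5, whose share was 13.2% and 13.4% in plus Dox against 14.7% and 15.1% in minus Dox. An opposite-strand gene that was not analysed here covers 30.6% of the exon bases of SNHG16. No test of SNHG16 against the other members was made.

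The 4 hosts of mainly H/ACA snoRNAs all fell, SNHG7 and SNHG8 less firmly than SNHG12 and SNHG15. SNHG12 (ENSG00000197989, chr1:28578538-28583132, minus strand), with SNORA16A, SNORA44 and SNORA61, had 11.6 and 10.9 CPM in plus Dox and 16.4 and 17.1 CPM in minus Dox. Its change of −0.58 (SE 0.10, edgeR adjusted p = 3.59e-06) was the lowest among the members. SNHG15 (ENSG00000232956, chr7:44983023-44986961, minus strand), the host of SNORA9, had 13.1 and 14.6 CPM in plus Dox and 18.8 and 18.6 CPM in minus Dox. It fell by 0.44 on the log2 scale (SE 0.09, edgeR adjusted p = 9.97e-05). In both genes the groups were apart, at counts of 365 to 699 per library.

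SNHG8 (ENSG00000269893, chr4:118278709-118279823, plus strand), the host of SNORA24, had 13.6 and 16.1 CPM in plus Dox and 21.2 and 17.7 CPM in minus Dox, with wide spread in both groups. Its log2 fold change was −0.39 (SE 0.10, edgeR adjusted p = 9.02e-04), and it missed without plus Dox replicate 1 (−0.27, edgeR adjusted p = 0.0602). It is the shortest of the genes, and genes of its GC content, length and abundance had a fitted change of −0.44. With that trend removed SNHG8 lay at 0.05 (edgeR adjusted p = 0.706). SNHG7 (ENSG00000233016, chr9:136721366-136728184, minus strand), the host of SNORA17A and SNORA17B, had 41.2 and 41.1 CPM in plus Dox and 46.1 and 47.8 CPM in minus Dox. Its fall of 0.19 (SE 0.06, edgeR adjusted p = 0.00820) was the weakest of the 9. It missed without plus Dox replicate 1 (edgeR adjusted p = 0.0748) or replicate 2 (edgeR adjusted p = 0.0811) and in DESeq2 (adjusted p = 0.0504), and 25.2% of its exon bases lie opposite DIPK1B.

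The scaling decides how far zero lies from these values. With library size only, the median of all tested genes moved to 0.22 on the log2 scale and that of the 10 genes to −0.23, a shift that moves all genes nearly alike. On that scale 6 of the 10 were called lower and SNHG16 higher (0.47), while SNHG6 (−0.06), SNHG8 (−0.17) and SNHG7 (0.03, a change of sign) did not pass. The trend on GC content, length and abundance was fitted to the fold changes of this same comparison, members included. Its removal may thus take out real change as well as bias. Once the trend on GC content, length and abundance was taken out, 7 were called lower and SNHG16 higher (0.32). The members' median was then −0.29, against 0.03 for all genes, so the gap between them was −0.32, against −0.45 with TMM alone. GAS5, SNHG1, SNHG5, SNHG12, SNHG15 and ZFAS1 passed as lower under all 3 of these scalings.

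**Figure D2:**
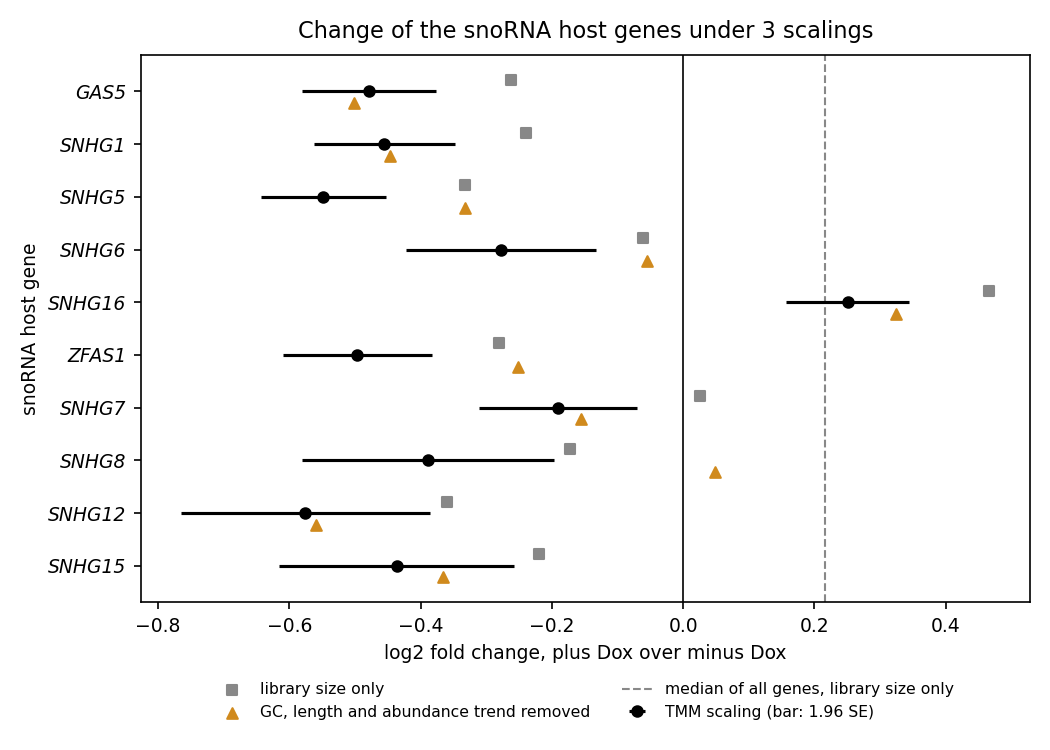
Log2 fold change (plus Dox over minus Dox, horizontal axis) of the 10 snoRNA host genes with TMM scaling (circles, with bars for the confidence interval that the legend defines from the SE), with library size only (squares) and after removal of the trend on GC content, length and abundance (triangles). The dashed line is the median of all genes with library size only, 0.22. Squares of all genes but SNHG16 lie left of it, and the triangle of SNHG8 lies at 0.05.

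Levels between the genes were compared per kilobase of merged exons, since these genes differ in length (923 bases in SNHG8 to 5362 in SNHG16). SNHG5 was highest in both groups, at 29.8 in plus Dox and 43.6 in minus Dox (CPM per kilobase, mean of 2 libraries), followed by SNHG6 at 25.1 in plus Dox and 30.4 in minus Dox. SNHG12 was lowest, at 2.63 in plus Dox and 3.92 in minus Dox, next to SNHG15 at 3.79 in plus Dox and 5.13 in minus Dox. SNHG16 ranked 3 in plus Dox at 19.4, where its range overlapped that of ZFAS1 at 19.3, and ranked 7 in minus Dox at 16.3. In plus Dox the ranges of GAS5 and SNHG8 (17.02 and 16.1), and of SNHG8 and SNHG1 (16.1 and 15.7), also overlapped. In minus Dox SNHG1 and SNHG8 (21.5 and 21.1) overlapped, and all other neighbours in either order were apart. Merged exons of these genes include retained introns, which lowers the level per length. By the longest transcript SNHG5 was still first, at 81.1 in plus Dox and 119 in minus Dox, and SNHG16 ranked 5 in plus Dox and 7 in minus Dox. The lowest pair changed places: SNHG15 was lowest, at 4.44 in plus Dox and 6.001 in minus Dox, and SNHG12 was next, at 5.62 in plus Dox and 8.37 in minus Dox, with ranges apart in both groups.

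**Figure D3:**
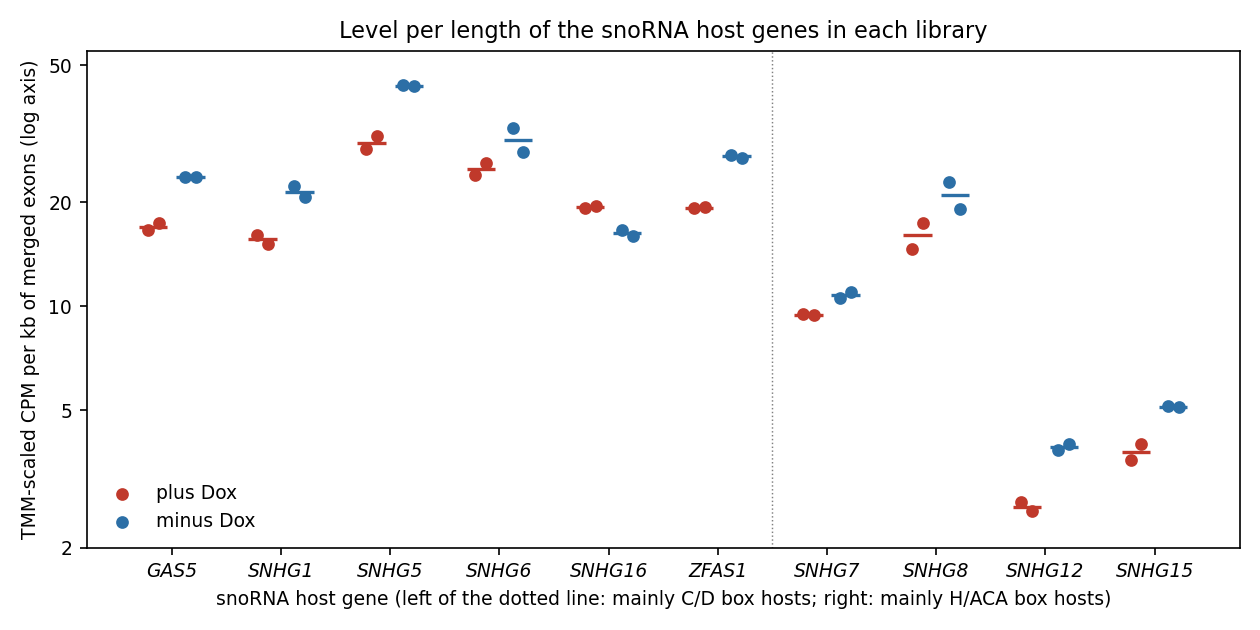
TMM-scaled CPM per kilobase of merged exons (log axis), 1 point per library, plus Dox left of minus Dox in each gene, with a short line at the mean. SNHG5 lies highest in both groups, and SNHG12 and SNHG15 lie lowest.

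The rows for snoRNAs inside these genes held almost no reads. Of 26 snoRNA rows within the members (none are annotated for GAS5 in GENCODE 29), the 21 that lie wholly inside annotated member exons were at 0 in every library. The other 5, which lie partly or wholly outside those exons, held 3 to 14 counts per library, in all 39 and 30 counts in plus Dox and 44 and 42 counts in minus Dox. Zeros in every row inside host exons, and counts in every row that reaches outside them, may reflect how reads over overlapping features were counted, which was not tested. Host rows could lose reads over the same bases: other annotated genes on the same strand cover 20.9% of the exon bases of ZFAS1, 15.3% of SNHG1 and 14.2% of SNHG8. The libraries are of polyA RNA, and neither the zeros nor the low counts of these rows are read as a measure of snoRNA levels.

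Close neighbours were checked because several of these genes share a start region with a gene on the opposite strand. SLC3A2, the heavy chain of the CD98 amino acid transporters, starts 188 bases from SNHG1. It was at 541 and 556 CPM in plus Dox against 811 and 821 CPM in minus Dox, and fell by 0.57 (edgeR adjusted p = 1.04e-16). ZNFX1, whose start lies 248 bases from that of ZFAS1, fell by 0.28, with 122 and 116 CPM in plus Dox and 143 and 146 CPM in minus Dox. ZBTB37, which starts 800 bases from GAS5, had 10.4 and 11.8 CPM in plus Dox and 8.43 and 10.1 CPM in minus Dox and did not pass (0.26, edgeR adjusted p = 0.0579). A non-coding gene 83 bases from the SNHG16 start, ENSG00000267546, averaged 0.146 CPM in plus Dox and 0.298 CPM in minus Dox and was not tested.

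Some genes that share exon bases with a member were also followed. MCMDC2, opposite SNHG6, and GAS5-AS1, opposite GAS5, rose by 0.77 and 1.21 on the log2 scale from low levels: they averaged 1.91 and 0.986 CPM in plus Dox and 1.12 and 0.428 CPM in minus Dox. DIPK1B (0.18) and TRNAU1AP (−0.22), opposite SNHG7 and SNHG12, did not pass.

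A list of other snoRNA host lncRNAs was read beside the members, with no test between the lists. Of 19 tested, 10 were lower, 2 were higher and 7 did not pass, with a median of −0.29 (−0.08 under library-size scaling, −0.12 with the trend removed). SNHG29, a host of SNORD49A and SNORD49B, was at 254 and 265 CPM in plus Dox against 333 and 334 CPM in minus Dox. SNHG29, SNHG17, SNHG19 and SNHG25 had the lowest adjusted p-values and fell by 0.36, 0.50, 0.63 and 1.06 on the log2 scale. The 2 higher ones, SNHG20 (0.40) and SNHG14 (0.11), were picked once their values were known, and neither was called in DESeq2 or without plus Dox replicate 1, plus Dox replicate 2 or minus Dox replicate 2. Among all 2409 tested lncRNA genes 396 were lower (16.4%), 288 higher (12%) and 1725 not past, with a median of −0.03. The share called depends on read depth, which was not matched between these genes and the hosts.

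Protein-coding snoRNA hosts were lower in 40 of 50, higher in 3 and not past in 7, with a median of −0.46. The 25 ribosomal protein genes among them were all lower (median −0.57), and of the other 25 genes 15 were lower, 3 higher and 7 not past (median −0.19). RPL13, RPL4, RPL10 and RPL13A, components of the large ribosomal subunit, had the lowest adjusted p-values, at 595, 1387, 514 and 1105 CPM in plus Dox against 933, 2060.1, 792 and 1657 CPM in minus Dox. The 3 higher hosts, named after their values were seen, were the nuclear import receptor IPO7 (0.36), the RNA helicase EIF4A2 (0.37) and the transcription factor subunit TAF1D (0.15). Over all 79 cytosolic ribosomal protein genes 78 were lower and 0 higher, with a median of −0.54. RPS6, a component of the small ribosomal subunit, fell by 0.62 on the log2 scale. RPL36A, the exception, averaged only 8.98 CPM in plus Dox and 10.6 CPM in minus Dox and did not pass (−0.24, edgeR adjusted p = 0.0672). Both of its plus Dox libraries still lay below both minus Dox libraries. Once the trend on GC content, length and abundance was taken out, 44 ribosomal proteins were lower and 11 higher (median −0.15). The protein-coding hosts then had 19 lower and 14 higher (median −0.02). With library size only these medians were −0.33 and −0.25. These genes helped to fit the trend, so removing it may also remove their own change.

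**Figure D4:**
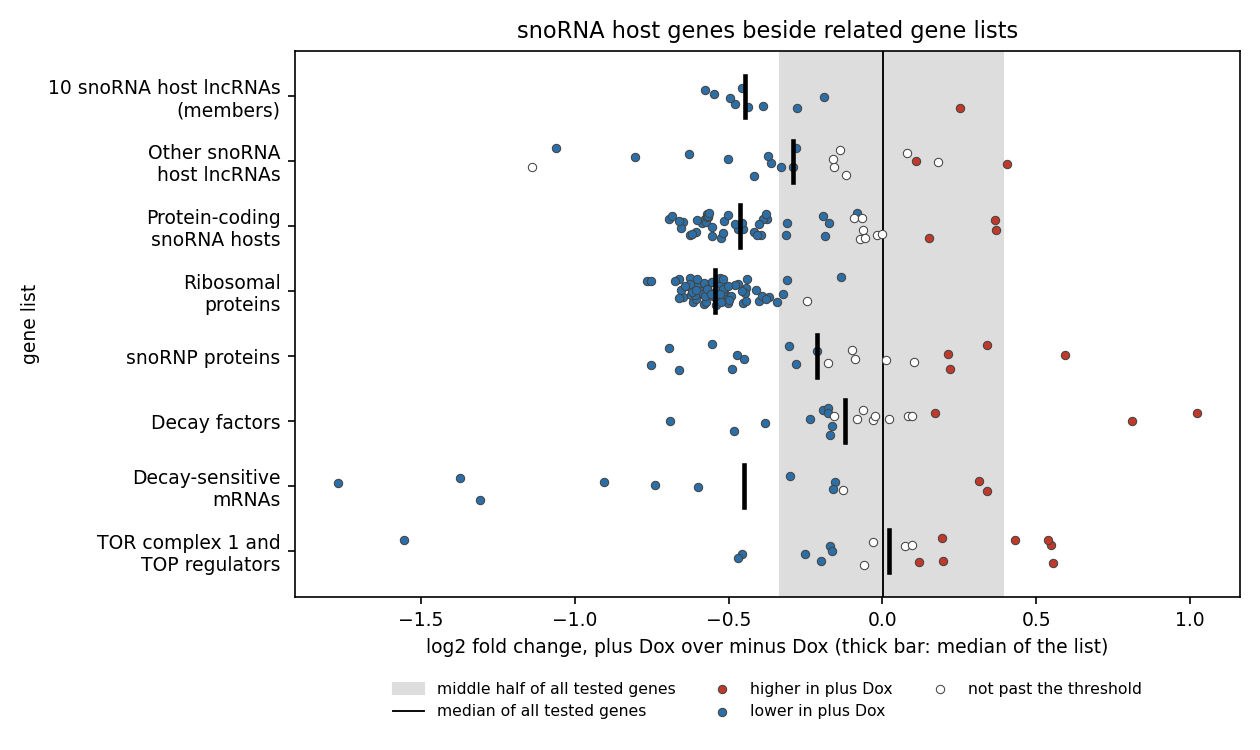
Log2 fold change (plus Dox over minus Dox, horizontal axis) of each tested gene in 8 lists, with red points higher, blue points lower and white points not past the threshold, and a thick bar at the median of each list. The grey band runs between the lower and upper quartiles of all tested genes (−0.33 and 0.39). The 10 snoRNA host lncRNAs have a median of −0.45, the protein-coding hosts −0.46 and the ribosomal proteins −0.54, and with the trend on GC content, length and abundance removed these medians were −0.29, −0.02 and −0.15.

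Proteins that build and escort snoRNAs were lower in 10 of 19 genes, higher in 4 and not past in 5, with a median of −0.21. With library size only, 7 were lower and 7 higher, with a median of 0.00. NOLC1, a nucleolar chaperone of snoRNPs, had 175 CPM in plus Dox and 295 CPM in minus Dox. DKC1, the pseudouridine synthase of H/ACA particles, had 120 CPM in plus Dox and 194 CPM in minus Dox. NOP56 and FBL, core proteins of C/D particles, fell by 0.56 and 0.47 on the log2 scale. The 4 higher ones, also picked by their values, were the assembly factors RPAP3 (0.59), ZNHIT6 (0.22) and SHQ1 (0.21) and the H/ACA core protein GAR1 (0.34).

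Of 20 nonsense-mediated decay genes 9 were lower, 3 higher and 8 not past, with a median of −0.12. The balance turned under library-size scaling (3 lower, 9 higher, median 0.10) and with the trend removed (6 lower, 8 higher, median 0.05). The termination factor GSPT1 fell by 0.69 and the helicase DHX34 by 0.48, while the exonuclease XRN1 and the decapping enzyme DCP2 rose by 1.02 and 0.81 on the log2 scale. UPF1, the central helicase of this pathway, named outside the rule, was at 138 CPM in plus Dox and 158 CPM in minus Dox (−0.19, edgeR adjusted p = 2.08e-04). Of 12 mRNAs used as readouts of this decay 9 were lower, 2 higher and 1 not past (median −0.45, and −0.23 with library size only or with the trend removed). MAP3K14 (−1.77), UPP1 (−1.37), ATF4 (−0.60) and GADD45A (−1.31) had the lowest adjusted p-values. These mRNAs also respond to stress and inflammatory signals, so their list does not measure decay alone.

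Genes of TOR complex 1 and of terminal oligopyrimidine mRNA control were lower in 7 of 18, higher in 7 and not past in 4, with a median of 0.02. With library size only, 3 were lower and 11 higher (median 0.24), and with the trend removed 2 were lower and 10 higher (median 0.15). The TOR inhibitor DDIT4 fell to 25.1 CPM in plus Dox, against 73.7 CPM in minus Dox. The poly(A)-binding protein PABPC1, itself made from a terminal oligopyrimidine mRNA, fell by 0.46 on the log2 scale. The RNA-binding protein LARP4 and the translation repressor EIF4EBP2 rose by 0.55 and 0.56. LARP1, which binds the oligopyrimidine start and is also named outside the rule, had 551 CPM in plus Dox and 523 CPM in minus Dox and did not pass (0.07, edgeR adjusted p = 0.0710).

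The genes whose profile over the 4 libraries lay closest to the mean profile of the 10 members were POMT2, MFSD3, MBOAT7, PARP16 and MRPS15. They were taken from 9927 other genes with a symbol and at least 10 CPM, by the root mean square distance of centred log2 CPM, which ran from 0.0094 in POMT2 to 0.014 in MRPS15. Their log2 fold changes were −0.33 to −0.37, and with 4 libraries such a match is a description of the size of the change.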

How the data were processed

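Each deposited file lists unnormalized read counts for the Ensembl genes of 1 library, per the file headers. Per the submitters' processing notes, which give no role or order, the authors used featureCounts 2.0.3, STAR 2.7.10b, cutadapt 4.0, DRAGEN and DESeq2 2.11.40.7, and build hg38. No source used here gives the annotation release or strand setting, so reads of overlapping genes cannot be told apart. Spans, exon lengths and overlaps come from GENCODE 29 (hg38), in which 57447 of 58051 rows were found.

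Counts were filtered with filterByExpr, scaled by TMM (factors 1.077 and 1.079 for plus Dox, 0.930 and 0.926 for minus Dox) and tested for group with edgeR 4.0.16's quasi-likelihood test in R 4.3.3, with Benjamini-Hochberg adjustment at 0.05 over 18046 genes. SEs are the log2 fold change divided by the square root of the F statistic. The pipeline was tested on simulated data. Alternatives were DESeq2 1.42.0, its size factors in edgeR, library size only, no filter, each library left out, a replicate block, and removal of a smooth trend (mgcv 1.9.3) on GC content, length and abundance. That trend was fitted to the log2 fold changes of the same comparison. Members and lists were chosen with earlier results of these data known. Named genes are the members, their neighbours, up to 4 genes per list with the lowest adjusted p, and the 5 closest profiles. Others are marked where they appear, and some genes that the rule names are not reported here. A count of 0 allows up to 3 counts, 0.0740 to 0.0964 CPM before scaling, for counting error only.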

Additional observations from a re-analysis of the deposited data

How the results depend on the processing

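The 10 members gave 1 higher call under every alternative run, and 6 to 9 lower calls. Leaving out 1 library at a time gave 6 (without plus Dox replicate 1, where SNHG6, SNHG7 and SNHG8 missed) to 9 lower members. The reversed values were SNHG7 with library size only (0.026) and SNHG8 with the trend on GC content, length and abundance removed (0.049). The cause was not tested. With library size only, calls over all genes were 7865 higher and 2925 lower, other snoRNA host lncRNAs had 5 lower, protein-coding hosts 10 higher, ribosomal proteins 1 higher, snoRNP proteins 7 higher, decay factors 9 higher and 3 lower, and TOR-related genes 11 higher and 3 lower. That scaling moved the higher share of calls to 72.9%, against 50.0% with TMM. With the trend removed, protein-coding hosts had 14 higher and 19 lower, ribosomal proteins 11 higher and 44 lower, snoRNP proteins 2 higher, decay factors 8 higher, decay-sensitive mRNAs 1 higher and TOR-related genes 2 lower. DESeq2 gave 0 higher other host lncRNAs and 2 higher snoRNP proteins, and no filter gave 1 higher other host lncRNA. Without 1 library, other host lncRNAs had 0 to 2 higher and snoRNP proteins 2 to 4 higher. Deviations of same-numbered libraries were not correlated over the tested genes (0.0023), which cannot exclude pairing with 2 libraries a group. With a replicate block 9 members were lower and 1 higher, with 5219 genes higher and 5195 lower over all. Only 3 of 8 promoters had the oligopyrimidine run at the exact start, against 6 within 5 bases. Depth was 365 to 4579 counts per member and library, and the 2 libraries a group limit the precision.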
